A study of Mus musculus with 36 samples.

Results

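The mouse mitochondrial genome encodes 6 subunits of the respiratory chain enzymes and the ATP synthase outside complex I: cytochrome b (mt-Cytb) of complex III, the cytochrome c oxidase subunits mt-Co1, mt-Co2 and mt-Co3 of complex IV, and the ATP synthase subunits mt-Atp8 and mt-Atp6 of complex V. They were chosen by identity, as 6 of the 27288 rows of the deposited count table, and all 6 were among the 25588 rows that passed the filter on low counts. The data were RNA-seq libraries of cortical neurons cultured from embryonic day 15 mouse pups of the outbred strain CD1. All 36 cultures were plated for 24 h and then kept for 6 h in 1 of 6 conditions: no addition (control), 0.1 or 1 of sodium selenite (selenite 0.1, selenite 1), 5 mM HCA, or HCA together with either dose (HCA with selenite 0.1, HCA with selenite 1). Each of 6 labelled culture batches gave 1 library to every condition, and the labels do not say how many embryos a batch holds. The sample labels give selenite in mM and the series text in micromolar, so doses are printed without a unit. The labels spell HCA out as homocysteic acid, whereas the series text calls it a ferroptosis inhibitor.

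Mitochondrial DNA is a small circle without introns, copied into long RNAs that span many genes and are cut where transfer RNAs lie between them. All of these subunits are read from the same strand. Complex III passes electrons from ubiquinol to cytochrome c, complex IV passes them on to oxygen, and complex V uses the resulting proton gradient to make ATP, on which neurons rely heavily. Cytochrome b carries the b-type haems of complex III. Subunit 1 of complex IV holds the site where oxygen is reduced, subunit 2 receives electrons from cytochrome c through copper, and subunit 3 completes the core without a redox centre. Subunit a of the ATP synthase, from mt-Atp6, forms the proton path beside the rotor, and the short mt-Atp8 product sits next to it. Homocysteic acid is a glutamate analogue that blocks cystine uptake, and selenite supplies selenium for selenoproteins.

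Names of rows rest on an inference. Read with the identifiers as deposited, the mitochondrial rows included 4 of 13 messenger RNAs, 0 of 2 ribosomal RNAs and 16 of 22 transfer RNAs. Read as holding the transcript 1 place earlier in identifier order, they included 13 of 13, 2 of 2 and 7 of 22. On this reading mt-Co1 stands under the deposited identifier ENSMUSG00000064352 (mt-Ts1), mt-Co2 under ENSMUSG00000064355 (mt-Tk), mt-Co3 under ENSMUSG00000064359 (mt-Tg), mt-Cytb under ENSMUSG00000064371 (mt-Tt), mt-Atp8 under ENSMUSG00000064357 (mt-Atp6) and mt-Atp6 under ENSMUSG00000064358 (mt-Co3). Their single exons lie on the plus strand of the mitochondrial chromosome in GRCm38 (GENCODE vM21): mt-Co1 at chrM:5328-6872, mt-Co2 at chrM:7013-7696, mt-Atp8 at chrM:7766-7969, mt-Atp6 at chrM:7927-8607, mt-Co3 at chrM:8607-9390 and mt-Cytb at chrM:14145-15288.

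Sequence decides what can be measured for 4 of them. Mouse chromosome 1 carries a nuclear copy of this part of the mitochondrial genome, annotated as pseudogenes on the minus strand. The copy of mt-Co2, Gm28661, matches 681 of its 684 bases with 0 mismatches. Gm28437 matches 783 of the 784 bases of mt-Co3, and Gm10925 matches 678 of the 681 bases of mt-Atp6, each also with 0 mismatches. The ends of these pairs are shown 5′ to 3′, since the capitals mark the only bases by which the annotated transcripts differ.
mt-Co2 (chrM:7637-7696): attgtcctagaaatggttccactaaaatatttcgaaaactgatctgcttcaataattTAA
Gm28661 (chr1:24614885-24614941, minus strand): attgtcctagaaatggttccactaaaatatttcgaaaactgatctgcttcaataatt
mt-Co3 (chrM:9331-9390): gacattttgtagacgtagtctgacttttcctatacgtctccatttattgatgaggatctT
Gm28437 (chr1:24613189-24613247, minus strand): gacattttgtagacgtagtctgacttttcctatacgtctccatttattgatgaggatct
mt-Atp6 (chrM:8548-8607): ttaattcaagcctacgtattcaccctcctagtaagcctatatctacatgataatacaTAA
Gm10925 (chr1:24613974-24614030, minus strand): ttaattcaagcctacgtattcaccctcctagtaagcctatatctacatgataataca

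The copy of mt-Co1 is shorter. Gm29216 covers 492 of its 1545 bases, from base 1054 to the end, and differs at 6 of them. All 6 lie within the first bases of the copy, where capitals mark them, and positions are counted from the 5′ end of mt-Co1: T1056A, C1057T, A1059G, A1060G, C1062A and A1066T.
mt-Co1 (chrM:6381-6440): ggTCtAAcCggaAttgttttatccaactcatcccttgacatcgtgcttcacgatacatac
Gm29216 (chr1:24616138-24616197, minus strand): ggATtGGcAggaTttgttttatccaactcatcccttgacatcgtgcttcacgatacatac

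The ATP synthase pair share bases with each other. The last 43 bases of mt-Atp8, in capitals, are also the first 43 bases of mt-Atp6, read in another frame, and both are translated from 1 messenger RNA.
mt-Atp8 (chrM:7766-7969): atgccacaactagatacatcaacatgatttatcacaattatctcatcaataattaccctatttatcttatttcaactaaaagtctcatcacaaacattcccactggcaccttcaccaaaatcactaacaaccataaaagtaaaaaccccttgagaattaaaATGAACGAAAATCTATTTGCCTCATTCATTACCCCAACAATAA
mt-Atp6 (chrM:7927-7986): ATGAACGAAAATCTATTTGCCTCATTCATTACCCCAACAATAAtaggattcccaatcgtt

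Of all 31-base runs of each transcript, 100% in mt-Co2, 99.9% in mt-Co3, 99.5% in mt-Atp6 and 63.9% in mt-Co1 also occurred in a nuclear transcript, against 7.47% in mt-Atp8 and 6.55% in mt-Cytb. Gm29216 covers only 492 of the 1545 bases of mt-Co1, so it cannot hold all of the 63.9%. The mt-Co1 sum below adds the Gm29216 row only, and the other transcripts with such runs are not named here. Only annotated transcripts were compared, not the chromosome 1 bases between Gm28661 and Gm10925, where a copy of mt-Atp8 would lie. Whole deposited counts went with the least shared sequence, though not in strict order. The rows of mt-Atp8 and mt-Cytb held whole numbers (within 1e-06) in 36 of 36 libraries, that of mt-Co1 in 8, that of mt-Co3 in 2, and those of mt-Co2 and mt-Atp6 in 0. Among the members, mt-Co3 shared more runs than mt-Atp6 yet held whole counts more often, and the complex I messenger RNA mt-Nd4 had 62.8% of its runs shared and whole counts in 36 libraries.

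The division of counts between member and copy was steady for mt-Co1 and varied widely between libraries for mt-Co2, mt-Co3 and mt-Atp6. Of the counts in the mt-Co1 and Gm29216 rows, 84.2% to 95.02% (median 92.5%) stood in the mt-Co1 row. For mt-Co2 the share was 0.119% to 35.1% (median 9.86%), and for mt-Co3 14.5% to 55.5% (median 24.7%). The mt-Atp6 row held from 0.302% in selenite 0.1 replicate 5 to 95.2% in selenite 1 replicate 5 (median 55.1%). Reads within the identical stretches cannot be told apart by sequence. Levels are therefore given below for the row, for the sum of the row and its copy, or for both, the sum having been added after the data were seen.

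**Figure D1:**
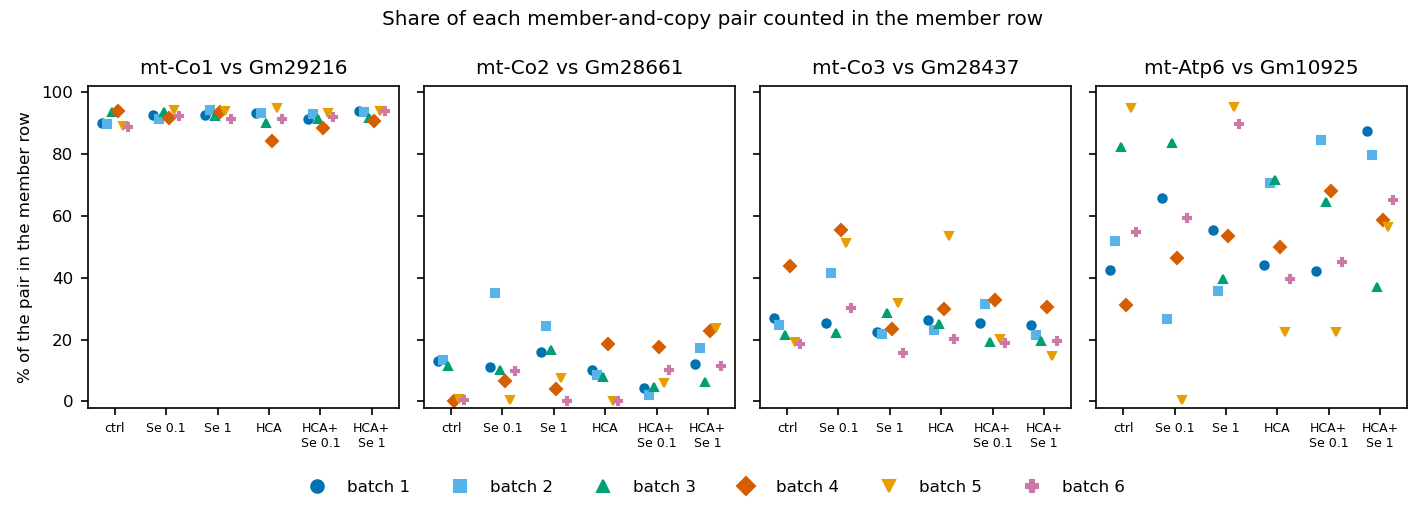
Percent of the counts of each member-and-copy pair that stood in the member row (vertical axis), for each library by condition (horizontal axis; ctrl, control; Se, selenite), with culture batch as symbol and colour. The mt-Co1 share stays between 84.2% and 95.02%, while that of mt-Atp6 runs from 0.302% to 95.2%.

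The row of Gm28661 also holds the transcript of Gm29285, that of Gm28437 also holds Mup1, and that of Gm29216 also holds Gm28107, so the sums include these.

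Library totals were 34.3 M to 56.9 M counts, of which 1.70% to 88.6% stood in 41 rows inferred to hold ribosomal RNA, leaving 4.95 M to 52.6 M. The labels name a ribosomal RNA depletion kit for all libraries. Control replicates 5 and 6 and selenite 0.1 replicate 5 stood apart from the other libraries, with the 3 lowest scaling factors (0.0309 to 0.0949, against at least 0.227). Fitted differences of members that moved by over 1.5 times without them are given both ways or with their range on leaving out 1 batch. Neuronal markers (7 of 12 listed genes tested) summed to 475 to 1386 CPM (counts-per-million units) over the 36 libraries. Astrocyte markers (4 of 7 tested) summed to 13.2 to 54.3 CPM, oligodendrocyte lineage markers (4 of 7) to 5.23 to 16.7, microglial markers (3 of 7) to 0.976 to 3.99 and neural progenitor markers (3 of 6) to 32.4 to 93.5 CPM. In such bulk RNA, fewer cells of a type and less RNA per cell cannot be told apart.

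Per length and with copies summed, the complex IV messages had the highest medians of the 6. CPM here are relative to library sizes scaled by edgeR's trimmed mean of M values, divided for this comparison by transcript length in kilobases. The median level over 36 libraries was 612 CPM per kilobase for mt-Co3 with its copy (226 to 1166), 492 for mt-Co1 with its copy (242 to 691) and 224 for mt-Co2 with its copy (175 to 487). It was 88.9 for mt-Atp6 with its copy (29.6 to 306), 37.2 for mt-Cytb (20.2 to 97.3) and 28.4 for mt-Atp8 (5.97 to 80.6). Each neighbour's range overlapped the next. Within a library, mt-Co3 exceeded mt-Co1 in 28 of 36, mt-Co1 exceeded mt-Co2 in 35, mt-Co2 exceeded mt-Atp6 in 36, mt-Atp6 exceeded mt-Cytb in 36 and mt-Cytb exceeded mt-Atp8 in 34. On the rows alone the medians were 451 CPM per kilobase for mt-Co1, 147 for mt-Co3, 46.8 for mt-Atp6 and 21.1 for mt-Co2, so the places of mt-Co3 above mt-Co1 and of mt-Co2 above mt-Atp6, mt-Cytb and mt-Atp8 hold for the sums only.

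**Figure D2:**
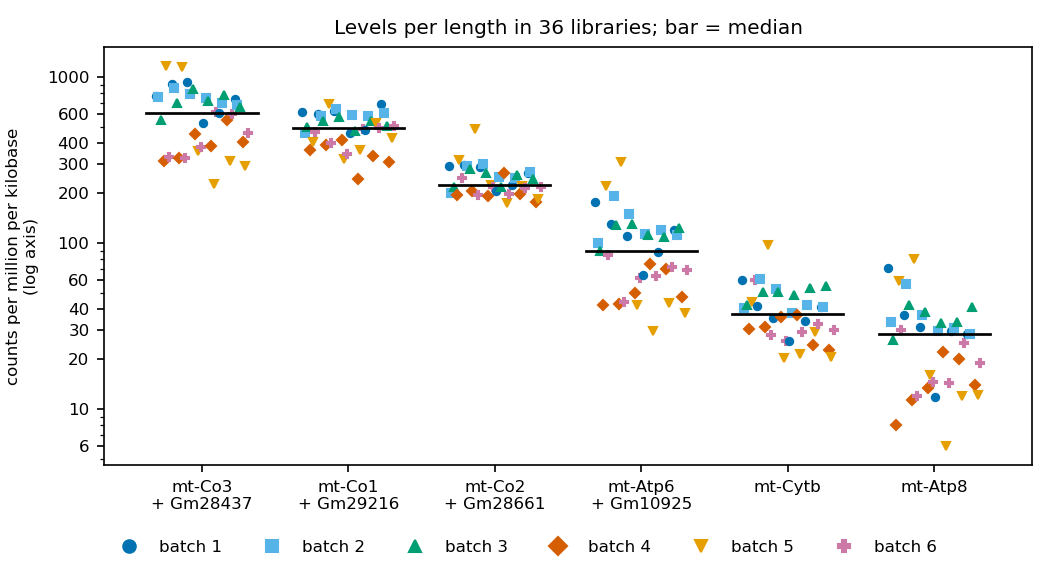
CPM per kilobase (vertical log axis) of the 6 messages, 4 of them summed with their chromosome 1 copy, in 36 libraries; bars are medians, symbols culture batches. Medians run from 612 for mt-Co3 with its copy to 28.4 for mt-Atp8.

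Rows for subunits of 1 enzyme differed in level per length. The sum of mt-Atp6 and its copy and the mt-Atp8 row, which come from 1 messenger RNA, had medians of 88.9 and 28.4 CPM per kilobase. As 1 messenger RNA carries both, these values do not measure their relative abundance. Counts were divided by whole transcript lengths, the transcripts overlap, and copy counts were added to mt-Atp6 only. The part of each in the gap was not tested. Of the summed CPM of all 6 with copies, mt-Co1 made up 31.9% to 64.1% (median 50.3%), mt-Co3 19.0% to 46.3% (median 31.4%), mt-Co2 8.77% to 19.1% and mt-Atp8 0.134% to 0.733%. That summed level was 909 to 2636 CPM per library.

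The spread between libraries was lower for each sum with a copy than for its row, most so for mt-Co2 and least for mt-Co1. Whether the split accounts for this was not tested. The SD of log2 CPM over 36 libraries was 2.35 for the mt-Co2 row and 0.30 once Gm28661 was added, 1.35 for the mt-Atp6 row and 0.79 with Gm10925, and 0.72 for mt-Co3 and 0.61 with Gm28437. For mt-Co1 it was 0.38 and 0.36. The mt-Co2 row ran from 0.162 CPM (5.69 estimated counts, in HCA replicate 5) to 69.7 CPM, whereas mt-Co2 with its copy ran from 119 to 333 CPM. The rows of mt-Cytb and mt-Atp8, which share few 31-base runs with annotated nuclear transcripts, had SDs of 0.52 and 0.88. A chromosome 1 copy of mt-Atp8 outside those transcripts was not looked for.

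With the copies added, the messages varied together. Pearson's r of log2 CPM over 36 libraries was 0.96 between mt-Atp8 and mt-Atp6 with its copy, 0.92 between mt-Co3 and mt-Atp6 with copies and 0.85 between mt-Cytb and mt-Atp8. The lowest of the 15 pairs was 0.58, between mt-Co1 and mt-Co2 with copies. On the rows alone the mt-Atp8 and mt-Atp6 value was 0.36 and that of mt-Co3 and mt-Atp6 0.0015. These values are descriptions: the libraries share culture batches, conditions and scaling factors, and mt-Atp8 and mt-Atp6 share 43 bases.

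HCA against control asks whether HCA alters these messages within 6 h. None of the 6 passed edgeR's quasi-likelihood test at an adjusted p of 0.05 (0 of 6, against 0.227% of all tested rows). Unadjusted p was below 0.05 for 0 members with edgeR, 1 with DESeq2 and 0 with limma voom, none of which called a member after adjustment. The log2 fold change was negative for 5 of 6 rows and for 6 of 6 with the copies summed, with a median of -0.31 over the rows against 0.08 over all tested rows. The share of counts in ribosomal RNA rows moved with condition: control libraries averaged 76.2% ± 15.2 (SD, n = 6) and those given HCA alone 45.7% ± 30.0. At the lower selenite dose the means were 58.5% ± 29.6 without HCA and 55.8% ± 21.1 with it, and at the higher dose 37.4% ± 30.4 and 33.4% ± 27.4. With that share as a covariate, the HCA differences against control were -0.34 for mt-Cytb, -0.10 for mt-Co1, -0.82 for mt-Atp8, and -0.13, -0.25 and -0.53 for mt-Co2, mt-Co3 and mt-Atp6 with their copies.

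Complex III was represented by mt-Cytb. Its level was 34.9 to 68.7 CPM in control (median 49.6) and 24.7 to 55.4 CPM in HCA (median 37.8). The groups overlapped, and HCA was lower in 4 of 6 batches. The log2 fold change was -0.48 ± 0.28 (SE, n = 6 and 6, edgeR adjusted p = 0.737), and -0.38 without control replicates 5 and 6 and selenite 0.1 replicate 5.

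Among the complex IV subunits, mt-Co1 was at 526 to 851 CPM in control (median 640.0) and 315 to 858 CPM in HCA (median 661). Its log2 fold change was -0.08 ± 0.23 (edgeR adjusted p = 0.999), with a 95% interval of -0.54 to 0.38. The HCA range enclosed the control range. For mt-Co2 with its copy the levels were 134 to 216 CPM in control and 119 to 182 in HCA (log2 fold change -0.16 ± 0.18), and for mt-Co3 with its copy 245 to 914 and 178 to 583 CPM (-0.28 ± 0.35). Without the 3 distant libraries these were -0.14 for mt-Co1, and -0.05 and -0.16 for mt-Co2 and mt-Co3 with their copies. The mt-Co2 row by itself gave 0.17 ± 0.90, a sign opposite to that of the sum, and turned negative with limma voom (-0.06), without the 3 distant libraries (-0.31) and with the ribosomal RNA share as a covariate (-0.03). The mt-Co3 row by itself gave -0.14 ± 0.37, and -0.29 to 0.034 on leaving out 1 batch.

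For the ATP synthase messages the fitted differences were larger in size but rested on few batches. In control, mt-Atp8 was at 14.3, 6.85, 5.34, 1.62, 11.97 and 6.11 CPM in batches 1 to 6. In HCA it was at 2.39, 6.06, 6.76, 4.48, 1.22 and 2.93 CPM. HCA was lower in batches 1, 2, 5 and 6 and higher in batches 3 and 4, and the groups overlapped. The log2 fold change was -0.94 ± 0.46 (edgeR adjusted p = 0.633, 95% interval -1.88 to 0.0048). For mt-Atp6 with its copy it was -0.64 ± 0.43 (edgeR adjusted p = 0.805), lower in 3 of 6 batches, with control at 28.7 to 150.3 CPM and HCA at 20.2 to 76.8. The mt-Atp6 row by itself gave -0.86 ± 0.60 (edgeR adjusted p = 0.821), and -1.23 to -0.058 on leaving out 1 batch. On leaving out 1 batch the log2 fold change ran from -1.24 to -0.53 for mt-Atp8, nearest 0 without batch 1 and -0.60 without batch 5, and from -0.85 to -0.21 for mt-Atp6 with its copy, nearest 0 without batch 5. For mt-Cytb it ran from -0.64 to -0.33. Without the 3 distant libraries it was -0.82 for mt-Atp8 and -0.42 for mt-Atp6 with its copy.

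**Figure D3:**
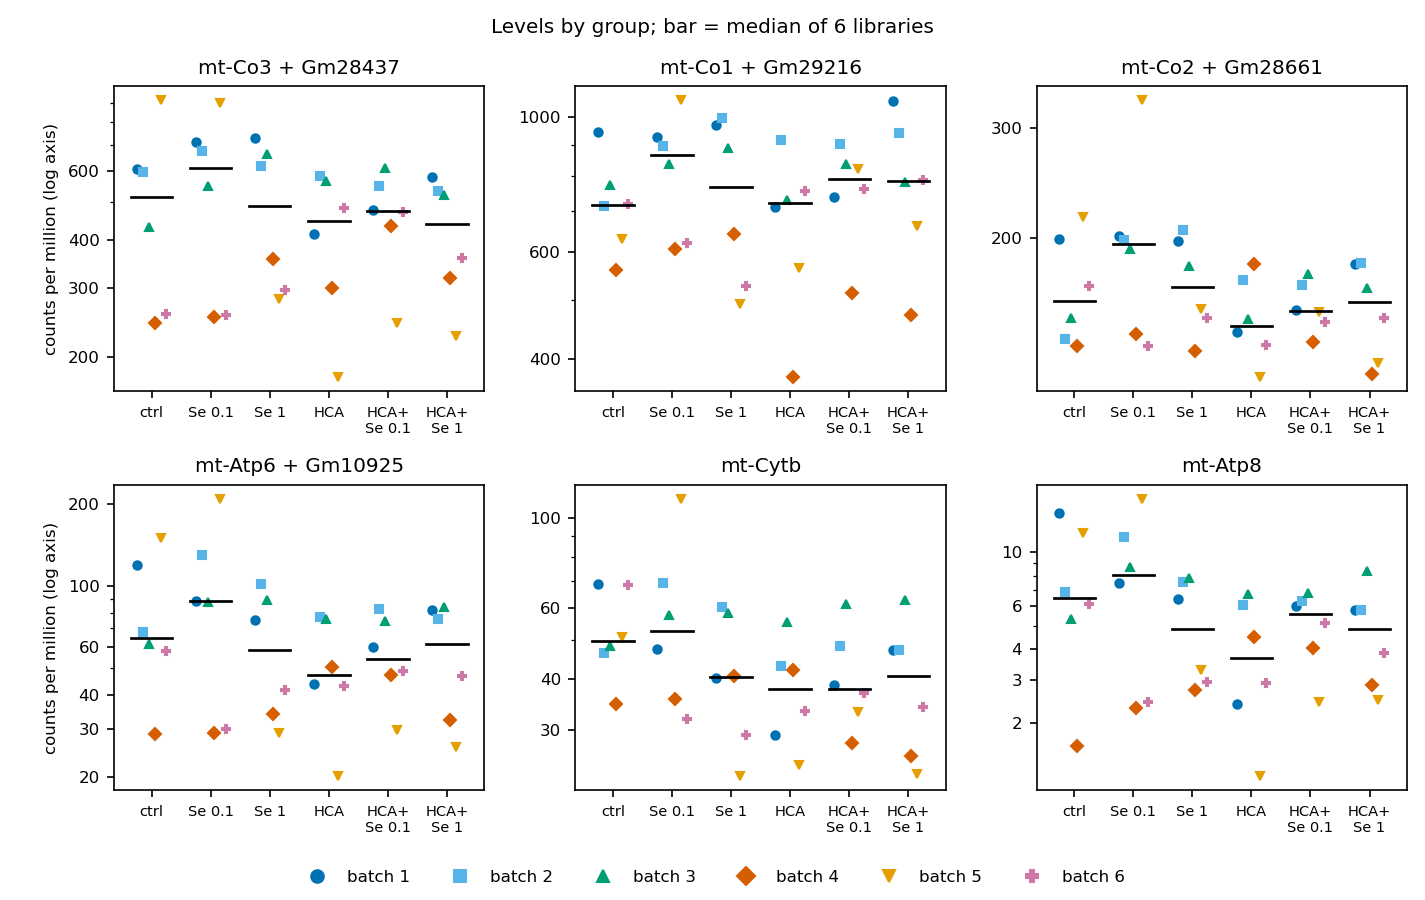
CPM (vertical log axis) of the 6 messages, 4 of them summed with their copy, in each library by condition (ctrl, control; Se, selenite), with culture batch as symbol and colour; bars are medians of 6 libraries. The conditions overlap in every panel, as for mt-Cytb at 34.9 to 68.7 in control and 24.7 to 55.4 in HCA.

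In neurons given selenite 0.1, HCA again called 0 of 6 members (0.160% of all rows). Unadjusted p was below 0.05 for 1 member with edgeR, 2 with DESeq2 and 0 with limma voom. That member was mt-Co3, at 77.0 to 459 CPM without HCA (median 161) and 49.2 to 172 CPM with it (median 119), a log2 fold change of -0.86 ± 0.37 (edgeR adjusted p = 0.918). The 459 CPM library is the distant selenite 0.1 replicate 5: the difference was -0.47 without the 3 distant libraries and -0.32 without batch 5. Summed with its copy it was -0.26 ± 0.35, and -0.08 without the distant libraries. For mt-Co2 with its copy, levels were 134 to 333 CPM without HCA and 136 to 175 with it, lower in 5 of 6 batches (-0.36 ± 0.18, edgeR adjusted p = 0.986, and -0.16 without the distant libraries). The mt-Atp6 row differed by 0.0012 ± 0.59 and turned negative under limma voom, under both other scalings and without the distant libraries, while its sum with the copy gave -0.72 ± 0.43, and -0.35 without the distant libraries.

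In neurons given selenite 1, 0 of 6 members were called (0.152% of all rows), with an unadjusted p below 0.05 for 0 members in edgeR, DESeq2 and limma voom alike. All 6 fitted differences lay between -0.34 for mt-Co3 and 0.21 for mt-Atp6, and the median was -0.0032 against -0.02 over all rows. The sum of mt-Co2 and its copy was lower with HCA in 6 of 6 batches, from 131 to 206 CPM without HCA and 121 to 182 with it, by a log2 fold change of -0.14 ± 0.18 (edgeR adjusted p = 1).

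Averaged over the 3 selenite levels, which sets 18 libraries with HCA against 18 without, 0 of 6 members were called (1.61% of all rows). Unadjusted p was below 0.05 for 2 members with edgeR, 3 with DESeq2 and 0 with limma voom. All 6 fitted differences were negative here, with a median of -0.31 against 0.03 over all rows, of which 46.0% were negative. They remained negative under both other scalings of the libraries, while mt-Co2 turned to 0.10 once culture batch was added as a block. The mean of mt-Cytb was 39.7 CPM with HCA and 51.3 without (-0.35 ± 0.16, edgeR adjusted p = 0.385, lower in 5 of 6 batches). That of mt-Co3 was 107 and 150.2 CPM (-0.45 ± 0.21, adjusted p = 0.406, 5 of 6 batches), but -0.25 ± 0.20 with its copy. For mt-Co2 with its copy the means were 153 and 179 CPM (-0.22 ± 0.10, adjusted p = 0.379, 5 of 6 batches).

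The subunits of the ATP synthase followed. The fitted difference was -0.53 ± 0.27 for mt-Atp8 (edgeR adjusted p = 0.439, lower in 3 of 6 batches) and -0.49 ± 0.25 for mt-Atp6 with its copy (adjusted p = 0.444, 4 of 6 batches). The mt-Atp6 row by itself gave -0.21 ± 0.34 (edgeR adjusted p = 0.917), and -0.50 to 0.092 on leaving out 1 batch. The catalytic subunit message mt-Co1 had the narrowest interval of the 6 rows, -0.32 to 0.21 around -0.05. Without the 3 distant libraries, none of which received HCA, the differences were -0.23 for mt-Cytb, -0.34 for mt-Co3, -0.41 for mt-Atp8, and -0.11, -0.15 and -0.29 for mt-Co2, mt-Co3 and mt-Atp6 with their copies. Leaving out batch 5, which holds 2 of these libraries, gave -0.22, -0.17 and -0.28 for mt-Cytb, mt-Co3 and mt-Atp8, and -0.09 and -0.17 for mt-Co2 and mt-Atp6 with their copies.

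Markers of other cell types moved in the same comparison. Of 4 astrocyte markers 2 were lower with HCA, the glutamate transporters Slc1a3 (-0.68 ± 0.18, edgeR adjusted p = 0.0389) and Slc1a2 (-0.51 ± 0.13, adjusted p = 0.0298), with a list median of -0.59. Of 4 oligodendrocyte lineage markers the transcription factor Olig2 was lower (-0.71 ± 0.14, edgeR adjusted p = 0.0040), while Cspg4 went the other way without a call (0.27 ± 0.27). Of 7 neuronal markers Gad1, which makes the transmitter GABA, was higher (0.85 ± 0.15, edgeR adjusted p = 7.7e-04). These 4 calls held with the batch block and without the distant libraries. None of 3 progenitor markers passed, and none of 3 microglial markers. Of the progenitor markers, Nes stood at -0.76 (edgeR adjusted p = 0.111, but 2.6e-05 without the distant libraries). Hes5 stood at -0.87 (edgeR adjusted p = 0.0656, and 0.159 without them). Pax6 went the other way, at 0.76 (edgeR adjusted p = 0.541, and 0.538 without them). Progenitor markers summed to 32.4 to 45.1 CPM in the 3 HCA conditions and to 38.1 to 93.5 CPM in the others. Neuronal markers summed to 783 to 1386 and 475 to 1312 CPM, and astrocyte markers to 13.2 to 40.6 and 25.9 to 54.3 CPM. The part of these cell types in the members' differences was not tested.

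**Figure D4:**
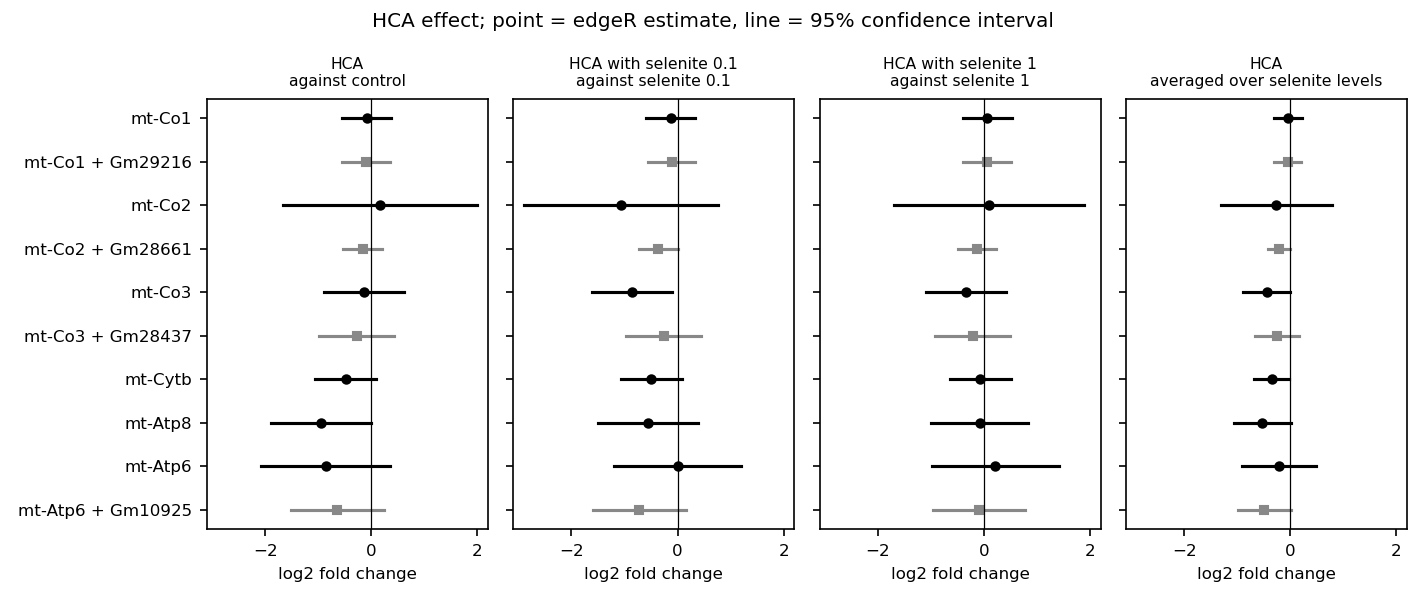
Log2 fold change of HCA (horizontal axis) for each member row (black circles) and its sum with the chromosome 1 copy (grey squares) in 3 comparisons and their average; points are edgeR estimates and lines 95% confidence intervals. The interval of mt-Co2 in HCA against control runs from -1.66 to 1.99 for the row and from -0.52 to 0.20 for the sum.

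Selenite alone gave no call among the members either. At 0.1 against control, 0 of 6 were called (0% of all rows, so no row passed), and unadjusted p was below 0.05 for 1 member with edgeR, 1 with DESeq2 and 0 with limma voom. That member was the mt-Co3 row, higher in 6 of 6 batches, at 48.0 to 177 CPM in control (median 127) and 77.0 to 459 CPM in selenite 0.1 (0.77 ± 0.37, edgeR adjusted p = 1, and 0.32 without the distant libraries). With its copy the levels were 245 to 914 and 254 to 898 CPM and the difference 0.13 ± 0.35 (0.06 without the distant libraries), and the copy row Gm28437 was lower in 4 of 6 batches (-0.15 ± 0.38). Selenite 1 against control also gave 0 of 6 members and 0% of all rows, with 0 members below an unadjusted p of 0.05 in edgeR, DESeq2 and limma voom. Fitted differences ran from -0.69 ± 0.60 for the mt-Atp6 row to 0.96 ± 0.90 for the mt-Co2 row. The 4 sums with copies ran from -0.39 to 0.06, mt-Cytb stood at -0.33 ± 0.28 and mt-Atp8 at -0.56 ± 0.46. Without the distant libraries the mt-Co2 and mt-Atp6 rows stood at 0.48 and -0.15 and the sums ran from -0.16 for mt-Atp6 to 0.13 for mt-Co2. These comparisons share the control libraries with HCA against control.

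Adding selenite to HCA was the comparison that asks whether selenium alters the HCA condition. Against HCA, HCA with selenite 0.1 and HCA with selenite 1 each gave 0 of 6 members called (edgeR, and 0% of all rows each), and the 2 comparisons share the HCA libraries. Unadjusted p was below 0.05 for 0 members in edgeR and DESeq2 at both doses and, at dose 1, for 1 in limma voom. The mt-Co1 row was at 315 to 858 CPM in HCA, 454 to 842 in HCA with selenite 0.1 (5 of 6 batches higher) and 429 to 999 in HCA with selenite 1 (6 of 6 batches higher). The groups overlapped throughout, and the log2 fold changes were 0.18 ± 0.23 and 0.24 ± 0.23 (edgeR adjusted p = 1 for both). For mt-Atp8 they were 0.37 ± 0.45 and 0.29 ± 0.45.

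Whether the HCA effect differed between selenite levels was tested directly as an interaction. It passed for 0 of 6 members and 0% of all rows with edgeR, and for 0 members with DESeq2 and limma voom, with 0 members below an unadjusted p of 0.05 by each tool. The members' unadjusted p lay between 0.381 for mt-Co3 and 0.827 for mt-Co1, and between 0.538 and 0.992 for the sums with copies.

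The culture batches, which the labels number, were compared as well. This comparison was added after the data were seen, as a test over the 6 batches with condition in the model. It passed for 1 of 6 members, mt-Co1 (edgeR adjusted p = 0.0145), where 9.33% of all rows passed, so a single call among 6 is not a result about the members as a set. The median of mt-Co1 was 856 CPM in batch 1, 850 in batch 2, 745 in batch 3, 490 in batch 4, 591 in batch 5 and 665 in batch 6. All 6 libraries of batch 4 (315 to 601 CPM) lay below all 18 libraries of batches 1 to 3 (641 to 999 CPM), which held for 0.145% of all rows and was picked after the values were seen. The call of mt-Co1 was lost without batch 1 (adjusted p = 0.0617), 2 (0.0661), 3 (0.0562) or 4 (0.285, where 8.39% of all rows passed).

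The medians of the other messages in batches 4 to 6 also lay below those in batches 1 to 3, save for the mt-Co2 row, although single libraries overlapped. With its copy, mt-Co3 had medians of 594, 589 and 558 CPM in batches 1 to 3 and 311, 263 and 328 in batches 4 to 6. For mt-Atp6 with its copy these were 78.2, 79.4 and 79.7, then 33.3, 29.3 and 45.1 CPM. Batch 5 also held the highest library of both, however, with mt-Atp6 and its copy at 150.3 CPM in control and 208 in selenite 0.1 against 20.2 to 29.7 in its other 4 libraries. Both of those high libraries belong to the 3 distant ones.

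Without the 3 distant libraries, 5 of 6 members passed (15.9% of all rows), all but the mt-Co2 row, with adjusted p of 5.2e-04 for mt-Cytb, 0.0026 for mt-Atp8, 0.0033 for mt-Co1, 0.0047 for mt-Co3 and 0.0052 for mt-Atp6 (edgeR). With copies summed, 6 of 6 passed, led by mt-Atp6 with its copy (edgeR adjusted p = 1.5e-05). Without batch 5 altogether, 5 of 6 rows passed (7.45% of all rows), as with limma voom on all libraries (25.0%), while DESeq2 called 1 of 6 (26.0%). In mt-Atp8, medians were 6.20, 6.58 and 7.31 CPM in batches 1 to 3 and 2.80, 2.89 and 3.42 in batches 4 to 6. In mt-Cytb they were 43.7, 47.8 and 57.9, then 35.3, 28.9 and 33.9 CPM.

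**Figure D5:**
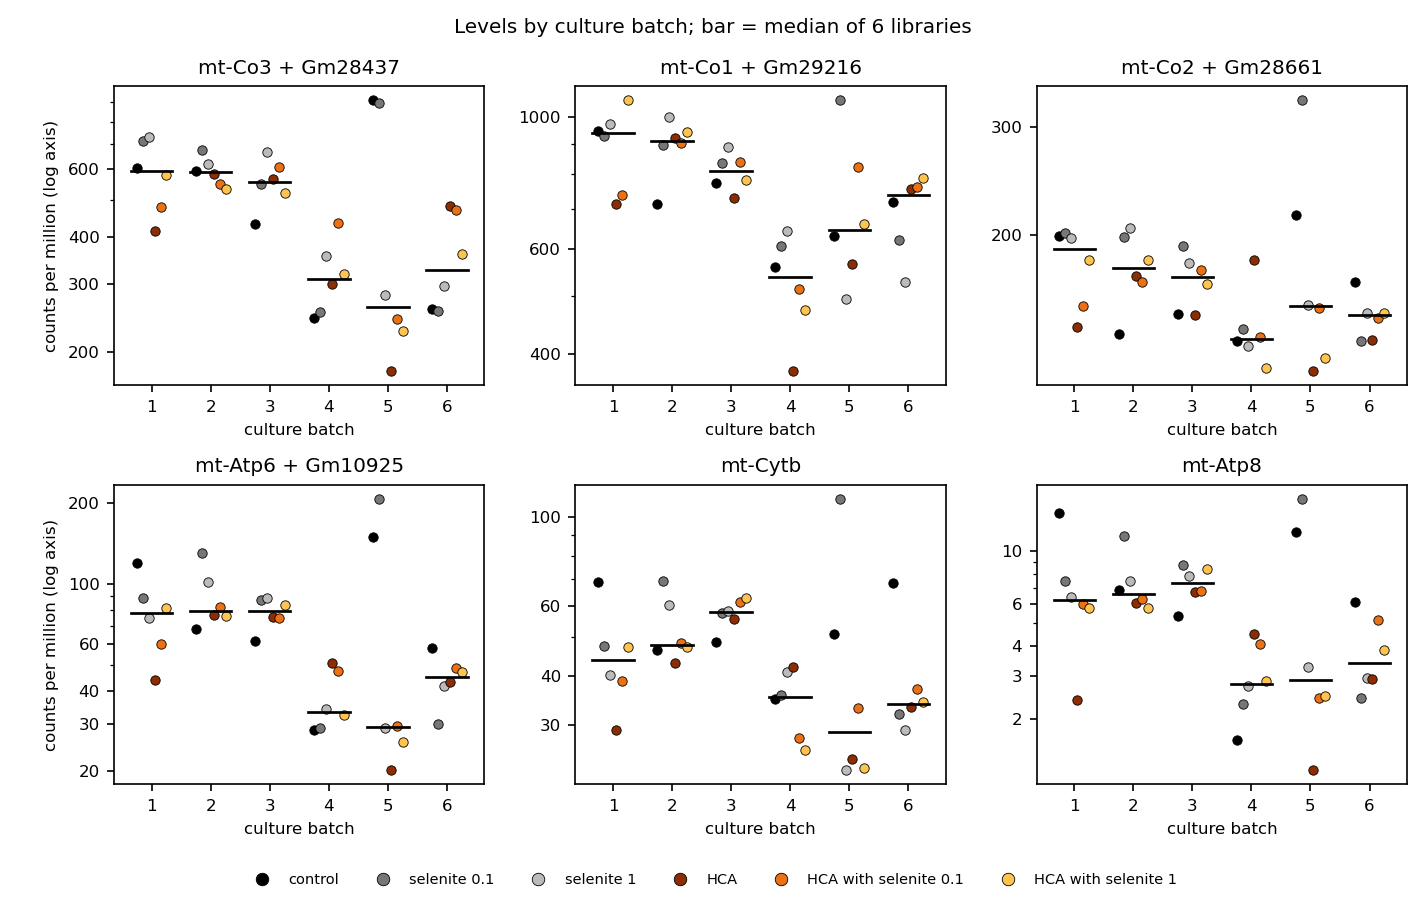
CPM (vertical log axis) of the 6 messages, 4 of them summed with their copy, by culture batch (horizontal axis), with condition as colour; bars are medians of 6 libraries. For mt-Co3 with its copy the medians are 594, 589 and 558 in batches 1 to 3 and 311, 263 and 328 in batches 4 to 6, and the control and selenite 0.1 libraries of batch 5 stand at the top.

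Among other measures of the batches, some separated batches 1 to 3 from batches 4 to 6 and others did not. The median share of ribosomal RNA rows was 34.7%, 62.9%, 64.9%, 31.9%, 58.8% and 71.1% in batches 1 to 6, and with that share as a covariate mt-Co1 kept its call (edgeR adjusted p = 0.0131). Neuronal markers had median sums of 854, 786 and 963 CPM in batches 1 to 3, all below the 975, 1153 and 1013 CPM of batches 4 to 6. Microglial markers had 2.52, 2.55 and 3.52 CPM in batches 1 to 3, all above the 1.98, 2.13 and 1.81 CPM of batches 4 to 6. Progenitor markers, at 58.3, 50.0, 48.0, 49.1, 39.7 and 43.9 CPM, overlapped between these batches. So did astrocyte markers, at 33.2, 23.9, 37.5, 24.6, 36.2 and 25.0 CPM. Their part in the batch differences was not tested.

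The rest of the mitochondrial genome gave the frame for these values. The 6 messages described here summed with their copies to 909 to 2636 CPM per library. These are not like measures, since the 6 complex I messages held alone in a row summed without copies to 97.0 to 309 CPM. Of the complex I runs of 31 bases, 98.1% in mt-Nd3 and 62.8% in mt-Nd4 also occurred in a nuclear transcript. None of the 6 complex I messages was called in the 8 comparisons by edgeR, DESeq2 or limma voom (0 of 48 tests). Unadjusted p was below 0.05 in 4 of these tests with edgeR, 8 with DESeq2 and 4 with limma voom. The complex I fitted differences in HCA averaged over selenite levels were negative for 6 of 6 (median -0.32). The 2 mitochondrial ribosomal RNAs, a target of depletion, had fitted differences of -2.51 for mt-Rnr1 and -2.21 for mt-Rnr2 there, neither called by edgeR or limma voom and both called by DESeq2. Rows inferred to hold 1 transfer RNA had median counts of 5 to 40.5 per library.

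Nuclear partners of the same enzymes were measured only in part. By a list for each complex, 4 of 9 nuclear subunits of complex III, 7 of 15 of complex IV and 7 of 20 of complex V could be named and tested, as could 10 of 30 assembly factors and 14 of 36 genes of mitochondrial transcription and RNA processing. On the shifted reading, a row need not hold every transcript of the gene it is named for, so its level may not be that of the whole gene. The rows named Cox5b, Cox7c and Ndufa4 held 1 transcript each. In the 8 comparisons together, 0 of 336 tests on these 42 genes passed with edgeR, DESeq2 or limma voom, and 12, 17 and 16 had an unadjusted p below 0.05. In HCA averaged over selenite levels the list medians were 0.14, -0.35, 0.17, 0.06 and -0.05, against 0.03 over all rows. The complex IV median rests on 5 of its 7 genes (Cox5b, Cox6a2, Cox7a1, Cox7c and Ndufa4) whose mean levels were only 0.0941 to 0.532 CPM. Cox6a1 and Cox6c, the other 2, were at 51.9 and 28.1 CPM with HCA and 45.3 and 24.0 without.

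Within each list, the 2 genes of lowest p in that comparison were these. For complex III they were Uqcrq at 0.83 ± 0.33 (edgeR adjusted p = 0.269, from mean levels of only 0.282 CPM with HCA and 0.142 without) and Uqcrb at 0.16 ± 0.11. Cox6c (0.22 ± 0.12) and Cox6a1 (0.20 ± 0.11), small subunits of complex IV, and Atp5f1 (0.22 ± 0.11) and Atp5g3 (0.17 ± 0.13), a stator and a rotor ring subunit of complex V, had adjusted p of 0.470 or more. The assembly factors Cox16 and Cox11, which serves copper insertion into complex IV, stood at -0.9985 ± 0.47 and 0.40 ± 0.21, Cox16 at mean levels of 0.169 CPM with HCA and 0.379 without. Fastkd1, of a family of mitochondrial RNA-binding proteins, stood at 0.42 ± 0.15 (adjusted p = 0.180) and the transcription factor Nrf1 at 0.44 ± 0.25.

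Rows whose pattern was most like the members' were sought among 8983 rows that hold 1 coding gene, by Pearson's r with the members' mean log2 CPM over 36 libraries. These were Anapc10 (r = 0.79), Fam208a (0.75), the row shared by Mup1 and the mt-Co3 copy Gm28437 (0.75), Katnbl1 (0.74) and Cr1l (0.71). With the copies summed the values were 0.70 for Anapc10, 0.77 for Fam208a, 0.51 for Katnbl1 and 0.56 for Cr1l. All points share the libraries' scaling and batches.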

How the data were processed

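Estimated counts were taken from the authors' deposited table, whose name speaks of TPM although its columns sum to different totals. Per the submitters' processing notes, STAR, Salmon and GRCm38 were used, and their versions are not given in the sources used here. Members and gene lists were chosen with earlier results of these data known, and rows were named by the shift of 1 transcript. Counts were rounded and fitted over all 36 libraries with edgeR 4.0.16 in R 4.3.3 (filterByExpr, trimmed mean of M values, quasi-likelihood F test, condition only), with Benjamini-Hochberg adjustment over 25588 rows and a threshold of 0.05. DESeq2 1.42.0, limma 3.58.1 voom, other scalings and filters, a batch block and left-out batches were alternatives. Same-numbered libraries come from the same labelled culture batch; their deviations from the group means had a median r of 0.0848 over 90 pairs, against -0.0141 over 450 other pairs. Members were named always; from each nuclear list, the genes past the threshold or else the 2 of lowest p; and the 5 rows most correlated with the members. The fit was tested on simulated data: of 200 rows changed 4-fold, it recovered 77% for HCA against control, with 7.23% false among the calls, and of 200 others lowered 4-fold in culture batch 4, the batch test recovered 56.5%, with 5.04% false. The changed rows were picked with the rows of lowest mean level left out, so the recovery rates do not cover those rows. Smaller changes, and the division of counts between member and copy, were not simulated. These rates therefore do not say how often differences as small as the members' would be called. Log2 CPM for correlations used a prior count of 2. Transcripts were compared by 31-base runs and by pairwise alignment in GENCODE vM21. No 2 libraries held identical values.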

Additional observations from a re-analysis of the deposited data

Results flagged for a closer look

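Within the conditions of 6 libraries, 3 of 60 sets of values (10 rows or sums in 6 conditions) had a library that stood apart from the rest of their group by Dixon's criterion, under which chance alone marks about 1 in 20 groups, which makes 3 about the number chance gives. The mt-Co2 row was at 69.7 CPM in selenite 0.1 replicate 2, with the next library at 22.7. The mt-Atp6 row was at 142.5 CPM in control replicate 5, with the next at 50.6. The sum of mt-Co2 and Gm28661 was at 333 CPM in selenite 0.1 replicate 5, with the next at 202. Control replicate 5 and selenite 0.1 replicate 5 are 2 of the 3 distant libraries.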

How the results depend on the processing

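All 9 counts of called members (8 comparisons and the interaction) stayed at 0 under every alternative run, the replicate block among them, which changed no call. For the culture batches, the count of called rows was 1 and became 5 with limma voom, 5 without the 3 distant libraries and 0 to 5 on leaving out 1 batch; with copies summed it became 5, 6 and 0 to 5. These batch counts make up the 14 recomputed values that moved. Of the others, 1189 kept their direction and side of the threshold and 69 changed sign, none of them called; the causes were not tested. The log2 fold changes that changed sign follow. With limma voom, they were -0.062 for mt-Co2 and 8e-04 for mt-Co3 in HCA against control, -0.11 for mt-Atp6 in HCA with selenite 0.1 against selenite 0.1, -0.14 for mt-Cytb and -0.13 for mt-Atp6 with its copy in selenite 0.1 against control, 0.053 for mt-Co3 and 0.084 for mt-Co3 with its copy in selenite 1 against control, and 0.72 for mt-Co2 and -0.040 for mt-Co3 in HCA with selenite 0.1 against HCA. With the ribosomal RNA share as a covariate, they were -0.028 for mt-Co2 in HCA against control, and 0.025 for mt-Atp8 in selenite 0.1 against control. Without the 3 distant libraries, they were -0.31 for mt-Co2 in HCA against control, -0.22 for mt-Atp6 in HCA with selenite 0.1 against selenite 0.1, -0.038 for mt-Cytb and 0.12 for mt-Atp6 in selenite 0.1 against control, and 0.069 for mt-Co3 with its copy in selenite 1 against control. With RLE size factors, they were -0.012 for mt-Atp6 in HCA with selenite 0.1 against selenite 0.1, and -0.0058 for mt-Co1, -0.043 for mt-Co1 with its copy and -0.10 for mt-Co2 with its copy in selenite 1 against control. With ribosomal RNA rows left out, they were -0.0049 for mt-Atp6 in HCA with selenite 0.1 against selenite 0.1. With DESeq2, they were 0.030 for mt-Atp8 in selenite 0.1 against control, and -0.0058 for mt-Co1, -0.043 for mt-Co1 with its copy and -0.10 for mt-Co2 with its copy in selenite 1 against control. With the culture batch as a replicate block, they were 0.53 for mt-Co2 in HCA with selenite 0.1 against HCA, -0.012 for mt-Co3 with its copy in HCA with selenite 1 against HCA, and 0.10 for mt-Co2 in HCA averaged over selenite levels. Leaving out 1 batch at a time, the following ranges crossed 0. In HCA against control they were -0.70 to 0.58 for mt-Co2, -0.29 to 0.034 for mt-Co3 and -0.45 to 0.13 for mt-Co3 with its copy. In HCA with selenite 0.1 against selenite 0.1 they were -0.33 to 0.30 for mt-Atp6 and -0.42 to 0.053 for mt-Co3 with its copy. In HCA with selenite 1 against selenite 1 they were -0.031 to 0.14 for mt-Co1, -0.18 to 0.43 for mt-Co2, -0.14 to 0.028 for mt-Cytb, -0.14 to 0.0012 for mt-Atp8, -0.026 to 0.13 for mt-Co1 with its copy and -0.16 to 0.0081 for mt-Atp6 with its copy. In selenite 0.1 against control they were -0.14 to 0.34 for mt-Cytb, -0.20 to 0.33 for mt-Atp8 and -1.04 to 0.15 for mt-Atp6. In selenite 1 against control they were -0.016 to 0.17 for mt-Co1, -0.31 to 0.15 for mt-Co3, -0.043 to 0.14 for mt-Co1 with its copy, -0.091 to 0.14 for mt-Co2 with its copy, -0.20 to 0.32 for mt-Co3 with its copy and -0.63 to 0.028 for mt-Atp6 with its copy. In HCA with selenite 0.1 against HCA they were -0.55 to 0.057 for mt-Co2 and -0.075 to 0.16 for mt-Co3. In HCA with selenite 1 against HCA they were -0.053 to 0.20 for mt-Cytb, -0.0094 to 0.70 for mt-Atp6, -0.040 to 0.15 for mt-Co2 with its copy, -0.12 to 0.10 for mt-Co3 with its copy and -0.022 to 0.26 for mt-Atp6 with its copy. In HCA averaged over selenite levels they were -0.12 to 0.004 for mt-Co1, -0.85 to 0.21 for mt-Co2 and -0.50 to 0.092 for mt-Atp6. The mt-Co2 and mt-Atp6 rows held as few as 1.33 and 0.842 estimated counts in selenite 0.1 replicate 5, where their copies held 445 and 278. That library also had the fewest counts outside ribosomal RNA rows, 4.95 M. The parts of the split and of depth in these low values were not tested.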
